A study of Bos taurus with 14 samples.

Results

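CYTB and ATP6 are protein genes of the mitochondrial genome, and their transcripts were measured here in the RNA of milk fat globules from 14 cows. They are 2 of the 36075 genes in the deposited tables and were taken by their Ensembl identifiers, ENSBTAG00000043550 for CYTB and ENSBTAG00000043584 for ATP6. All cows were purebred Holsteins of 1 commercial farm on the same rations and management. 7 were homozygous for the A1 form of β-casein (A1A1) and 7 for the A2 form (A2A2), and each cow gave 1 library from frozen milk. β-casein is a major milk protein, and milk fat globules are the fat droplets that the secretory cells of the udder release together with some of their cytoplasm. The labels do not give age, parity, stage of lactation or udder health. The comparison asks how the RNA of the globules differs between the genotypes, for which no other allele is given.

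The mitochondrial genome is a small circle that is transcribed into long RNAs, from which the tRNAs are cut out and the mRNAs between them are released. CYTB encodes cytochrome b, the catalytic core subunit of respiratory complex III that this genome supplies. It passes electrons from ubiquinol towards cytochrome c while protons are moved across the inner membrane. ATP6 encodes the a subunit of ATP synthase, which together with the ring of c subunits forms the path by which protons flow back and drive ATP formation. ATP6 shares its mRNA with ATP8, another subunit of the same enzyme, and the reading frames of both overlap. The udder cell in lactation spends much ATP on the synthesis of protein, fat and lactose.

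Gene lengths follow from counts and FPKM (counts scaled to gene length and by library, here not by library totals alone) up to a factor per library. This factor was set so that CYTB had 1140 bases, its length in the RefSeq table of the assembly ARS-UCD2.0. The length of CYTB is therefore no check of its name. ATP6 then came out at 681 bases, its length in the same table. Among the 8 genes of 1140 bases with a count, CYTB had 4027048 counts over all libraries and the next had 4797. Among the 12 of 681 bases, ATP6 had 4537245 counts and the next had 9303. In that table ATP6 lies between ATP8 and COX3 and shares bases with both. CYTB lies between tRNA genes and near ND6, which is read from the opposite strand. The files name no genome build, so coordinates are not given.

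Total counts per library ran from 16116849 to 22994197, with 19301129 ± 2053233 for A1A1 and 21104426 ± 1764769 for A2A2 (SD, 7 cows each). The TMM factors, which edgeR uses to scale libraries, were 0.946 ± 0.152 and 1.07 ± 0.0752, and values scaled without them are given below. The names of milk protein and leucocyte genes are not paired with the identifiers, so the tissue label was not checked against markers. In such a bulk sample, fewer cells of a type and less RNA per cell cannot be told apart. Descriptions of 4 libraries (A1A1 10 and 15, A2A2 5 and 13) end in a suffix, _2, that the labels do not explain, and values within these libraries and the other 10 are given beside the results. The labels state no pairing of the cows.

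CYTB was lower in A2A2 than in A1A1 globules. In A1A1 cows its level ran from 11785 CPM (counts per 1000000 counts after TMM scaling) in A1A1 7 over a median of 16884 to 39023 in A1A1 9. In A2A2 cows it ran from 3970 CPM in A2A2 17 over a median of 7378 to 14668 in A2A2 11. The genotypes thus overlapped through A2A2 11, which lay above A1A1 7 and A1A1 3, while the other 6 A2A2 cows lay below every A1A1 cow. Mean levels were 20582 ± 9394 CPM for A1A1 and 8433 ± 3696 CPM for A2A2 (SD, 7 cows each). The mean log2 CPM differed by -1.30 with a standard error of 0.332, a 95% interval of -2.01 to -0.58 and an exact permutation p of 0.00233 (two-sided, 3432 splits of the cows).

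ATP6 was lower in A2A2 by a similar factor. Its level ran from 15056 CPM in A1A1 7 over a median of 20895 to 44361 in A1A1 9, and in A2A2 from 4346 in A2A2 17 over 8910 to 15547 in A2A2 13. Here the overlap came from another cow, since only A2A2 13 reached above the lowest A1A1 cow and the other 6 A2A2 cows did not. Mean levels were 23143 ± 10087 CPM for A1A1 and 9791 ± 4145 CPM for A2A2 (SD, 7 cows each). On the log2 CPM scale the means differed by -1.27 (standard error 0.319), with a 95% interval of -1.97 to -0.58 and an exact permutation p of 0.00117 (two-sided). A1A1 9 was the highest and A2A2 17 the lowest of the 14 cows for both genes.

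**Figure D1:**
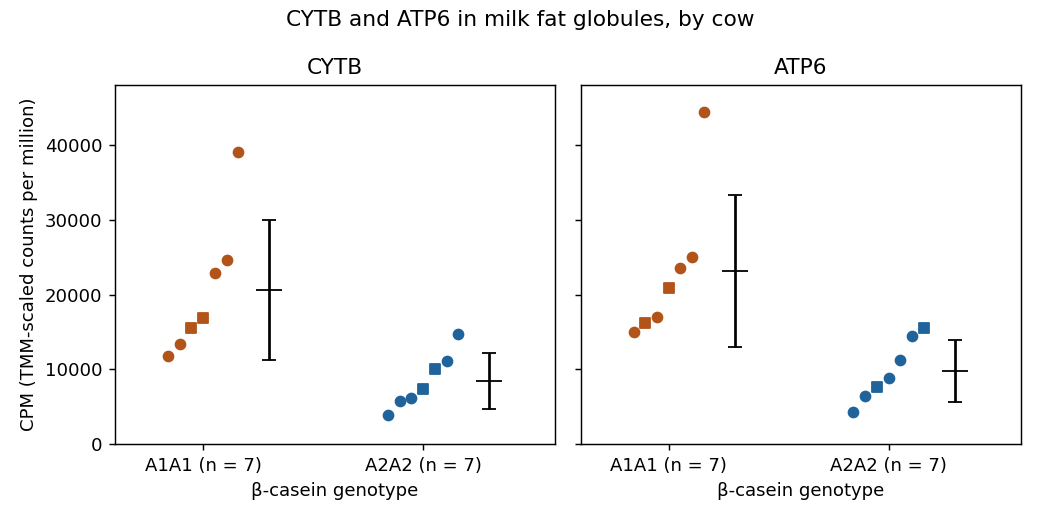
Each point is 1 cow, placed by genotype on the horizontal axis and by TMM-scaled CPM (linear scale from 0) on the vertical axis, with CYTB on the left and ATP6 on the right. Squares are the 4 libraries with the suffix _2, and black bars show the mean ± SD of 7 cows. For either gene 6 of 7 A2A2 cows lie below every A1A1 cow.

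The test over all genes did not call either gene. In edgeR's quasi-likelihood test CYTB had a log2 fold change of -1.29 and ATP6 of -1.24, with unadjusted p of 0.00161 and 0.00172 and an adjusted p of 0.856 for both. They were 12th and 13th by p among the 12320 genes tested, of which edgeR called 0 at an adjusted p of 0.05, or 0% as background. At an unadjusted p under 0.05 both were among the 265 genes lower in A2A2, 2.15% of the genes tested, and 146 genes were higher. A pattern with at least 6 of 7 A2A2 cows below every A1A1 cow occurred in 17 genes, 0.138% of those tested. DESeq2 after the same filter on low counts called 12 genes (0.0974% of those tested), of which 9 were lower in A2A2 (0.0731%), and both CYTB and ATP6 were among these with an adjusted p of 0.0496. Without that filter it called 5, with an adjusted p of 0.113 for CYTB and ATP6.

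The exact permutation p of CYTB and ATP6 belongs to a family of 6 library measures, over which both had a Benjamini-Hochberg adjusted p of 0.00699. The genes were chosen with earlier results of these cows known, so this is not independent evidence of their direction. In the 10 libraries without the suffix, CYTB differed by -1.45 log2 CPM (exact permutation p = 0.0317), which does not pass when adjusted over the 6 measures (adjusted p = 0.0952). ATP6 differed by -1.47 (exact p = 0.00794, the smallest that 5 against 5 can give, adjusted p = 0.0476). In the 4 with it, the differences between 2 and 2 cows were -0.91 for CYTB and -0.75 for ATP6, for which no test was run because the smallest exact p is then 0.333.

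Both transcripts were a large part of the RNA in some cows and a small part in others. Their summed share of a library was 4.14 ± 1.87% for A1A1 and 1.96 ± 0.849% for A2A2 (SD, 7 cows each). The share was lowest in A2A2 17, with 0.413% for CYTB (exact binomial 95% interval 0.410 to 0.416%) and 0.452% for ATP6 (0.449 to 0.455%). It was highest in A1A1 9, with 3.54% for CYTB (3.53 to 3.54%) and 4.02% for ATP6 (4.01 to 4.03%). These intervals cover counting error only and are far narrower than the differences between cows. On this scale, which uses no TMM factor, only 4 of 7 A2A2 cows lay below every A1A1 cow for either gene. Here A1A1 3 was the lowest A1A1 cow, with 0.851% for CYTB and 1.08% for ATP6. Its TMM factor of 0.636 was the lowest of all libraries. How many of all genes show such a pattern on this scale was not counted, so it is given as a description. When edgeR scaled by library totals alone, the log2 fold changes were -1.11 for CYTB and -1.05 for ATP6, while the median of all genes moved to 0.18. Relative to that median they were -1.29 and -1.24.

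By number of counts ATP6 was between the 3rd gene (A1A1 9) and the 16th of its library, and CYTB between the 6th (A1A1 9) and the 18th. Per length ATP6 lay between the 3rd and the 15th place, and CYTB between the 7th and the 23rd. The median place per length was 8 in A1A1 and 12 in A2A2 for ATP6, and 14 and 19 for CYTB. A change of place also depends on the other abundant genes of a library.

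ATP6 stood above CYTB in every cow once gene length was taken into account. The level per length, in the FPKM the authors deposited, was 33653 ± 14510 for ATP6 and 17884 ± 8091 for CYTB in A1A1 cows. In A2A2 cows it was 14379 ± 6044 and 7395 ± 3200 (SD, 7 cows each). These FPKM are not free of a library factor like that of TMM. CYTB was higher in A1A1 3 than in A1A1 7 in FPKM (11501 and 10300) and in CPM (13390 and 11785). Its share of counts was lower there (0.851 and 1.16%). Such a factor cancels in the ratio of both genes. ATP6 was higher in 14 of 14 libraries, by a median ratio of 1.85. In raw counts, where the longer CYTB gains, ATP6 was higher in 13 of 14 libraries, and in A2A2 11 the ratio of counts was 0.985.

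The ratio of both genes varied far less between cows than their levels did. Over 14 cows CYTB spanned a 9.83-fold range of CPM and ATP6 a 10.2-fold range, whereas the ratio of ATP6 to CYTB per length spanned a 1.57-fold range. It ran from 1.70 over a median of 1.90 to 2.14 in A1A1, and from 1.65 over 1.83 to 2.59 in A2A2. The highest ratios belonged to A2A2 13 with 2.59 and A2A2 1 with 2.42, and the other 5 A2A2 cows lay between 1.65 and 1.88. The genotypes overlapped, and the log2 ratio of CYTB to ATP6 averaged -0.93 ± 0.15 for A1A1 and -0.96 ± 0.26 for A2A2 (SD, 7 cows each). Its difference of -0.028 was smaller than the spread between cows (95% interval -0.28 to 0.22, exact permutation p = 0.814, adjusted p = 0.814 over 6 measures). Without A2A2 13 the difference was 0.042 and without A2A2 1 it was 0.025.

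**Figure D2:**
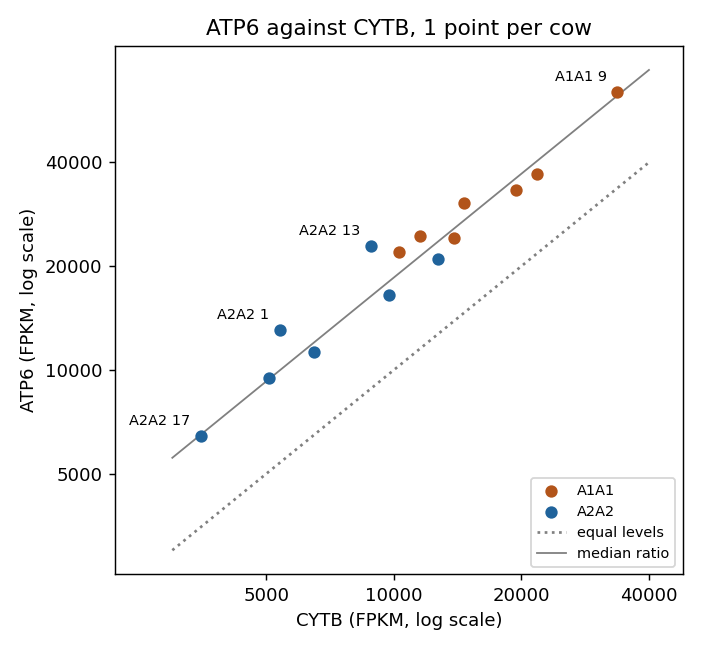
Each point is 1 cow, with CYTB in FPKM on the horizontal axis and ATP6 in FPKM on the vertical axis, both on log scales. The solid line is the median ratio of 1.85 and the dotted line equal levels, and all 14 cows lie above the dotted line, with A2A2 13 and A2A2 1 farthest above the solid one.

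CYTB and ATP6 varied together across cows. Over 14 cows their log2 CPM had a Pearson r of 0.974 (permutation p = 1e-05, the smallest that 100000 resamples can give) and a Spearman rho of 0.943 (permutation p = 2e-05). Without A2A2 17 and A1A1 9, which lay farthest from the median, r was 0.946 (permutation p = 2e-05). Within A1A1 r was 0.971 (exact permutation p = 0.0006) and within A2A2 it was 0.920 (exact permutation p = 0.0054), with rho of 0.964 (exact p = 0.0028) and 0.857 (exact p = 0.024). Adjusted over these 4 comparisons, the p of r was 4e-05, 4e-05, 0.0008 and 0.0054 in the same order (permutation tests, Benjamini-Hochberg). The genes of a library share its scaling factor.

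The other genes of the mitochondrial genome were found by length alone. The RefSeq table lists 15 mitochondrial genes for proteins or rRNAs. The 50 genes with the most counts held a gene of exactly equal length for 12 of these, CYTB and ATP6 included, and the most abundant one was used. They are called below by the mitochondrial gene whose length they have. All 10 others had lower levels in A2A2, with edgeR log2 fold changes from -1.56 for ND2 to -1.04 for ND3 and a median of -1.31, beside a median of -0.0042 over all genes tested. None of the 10 passed an adjusted p of 0.05 in edgeR, and all 10 had an unadjusted p under 0.05, against 3.34% of all genes in either direction. The 10 largely vary together with CYTB and ATP6 across cows, as given below, so they are not 10 separate results. CYTB was 6th and ATP6 8th from the most negative of the 10 protein genes.

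**Figure D3:**
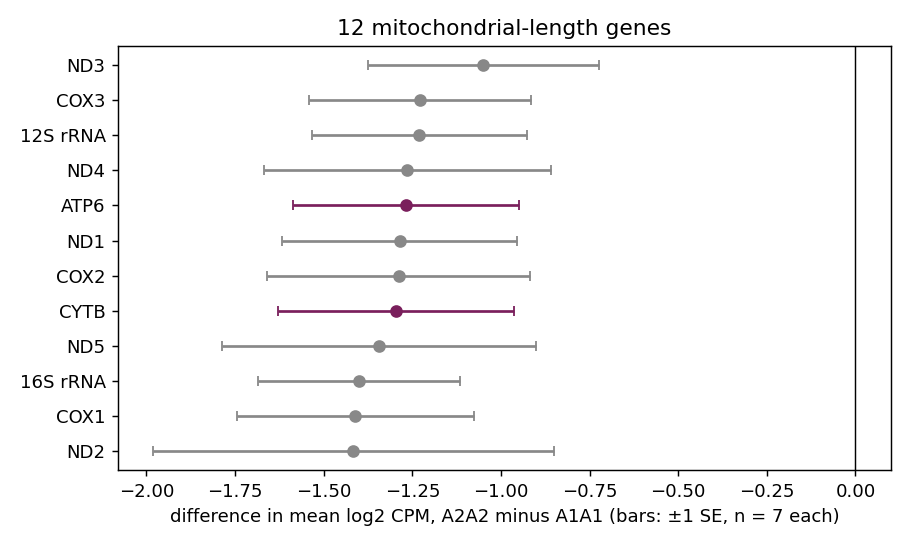
The horizontal axis is the difference in mean log2 CPM, A2A2 minus A1A1, and each row is 1 of the 12 mitochondrial-length genes, with bars of 1 standard error from 7 cows a group. CYTB and ATP6, in purple, lie at -1.30 and -1.27, and all 12 genes lie below 0.

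No genotype difference was detected in the portion of the mitochondrial mRNA counts that came from either gene. The 10 mitochondrial-length protein genes together held 25.2 ± 12.5% of all counts in A1A1 cows and 11.5 ± 4.93% in A2A2 cows (SD, 7 cows each). This total was highest in A1A1 9 with 49.8% and lowest in A2A2 17 with 4.75%. Of the counts of these 10 genes, CYTB made up 7.78 ± 0.803% in A1A1 cows and 7.93 ± 0.846% in A2A2 cows (SD, 7 cows each). The difference was 0.15 percentage points, with a 95% interval of -0.82 to 1.12 (exact permutation p = 0.738, adjusted p = 0.814 over 6 measures). ATP6 took 8.85 ± 0.660% and 9.18 ± 0.767%, a difference of 0.34 points with a 95% interval of -0.49 to 1.19 (exact permutation p = 0.397, adjusted p = 0.595). The highest single values were 9.32% for CYTB in A1A1 2 and 10.5% for ATP6 in A2A2 13, and the lowest were 6.69% for CYTB in A2A2 1 and 7.99% for ATP6 in A1A1 10. A2A2 13 and A2A2 1 were the lowest pair of cows for CYTB and the highest pair for ATP6.

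Per length the 10 protein genes had a similar order from cow to cow, with some changes of place between neighbours. From high to low by mean log2 FPKM it was COX1, COX3, ATP6, ND3, COX2, ND1, CYTB, ND4, ND2 and ND5. COX1, COX2 and COX3 encode the core of cytochrome c oxidase, which takes over the electrons that complex III hands to cytochrome c, and the ND genes encode subunits of complex I. ND4, ND2 and ND5 were always 8th, 9th and 10th, while COX2 ran from 3rd to 6th place and ND1 from 4th to 7th. ATP6 was 3rd or 4th and CYTB 6th or 7th in every library. Their mean FPKM over 14 cows was 24016 ± 14631 for ATP6 and 12640 ± 8035 for CYTB, from 6433 to 64157 and from 3511 to 33713.

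The neighbours in this order were compared within cows by exact sign flips of the log2 ratio, 9 pairs in all. The pairs and their directions were taken from the same values, and the p-values do not account for that choice. ATP6 lay below COX3, its neighbour on the genome, in 14 of 14 libraries, with COX3 1.61-fold higher (exact permutation p = 0.000122, adjusted p = 0.000275). ATP6 and ND3 did not differ beyond their spread, with ATP6 1.09-fold higher and above ND3 in 9 of 14 libraries (exact permutation p = 0.0854, adjusted p = 0.0854). CYTB lay below ND1 in 13 of 14 libraries, with ND1 1.17-fold higher (exact permutation p = 0.00134, adjusted p = 0.00201). CYTB was 1.97-fold above ND4 in 14 of 14 libraries (exact permutation p = 0.000122, adjusted p = 0.000275). The smallest gaps around both genes are thus those to ND3 and ND1.

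**Figure D4:**
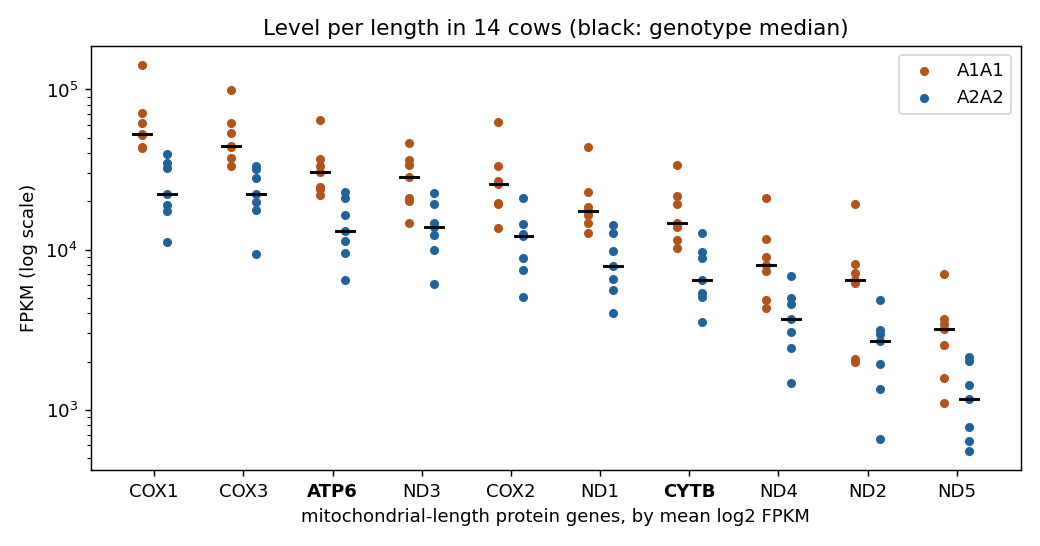
The horizontal axis lists the 10 mitochondrial-length protein genes by mean log2 FPKM and the vertical axis is FPKM on a log scale, with 1 point per cow, A1A1 on the left and A2A2 on the right of each gene, and black lines at the medians of 7 cows. ATP6 is 3rd and CYTB 7th in this order, and the A2A2 median is below the A1A1 median for all 10 genes.

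How tightly CYTB and ATP6 followed single partners differed. The log2 ratio per length of CYTB to COX1 had an SD of 0.19 over 14 cows and that of CYTB to ATP6 one of 0.20. For ATP6 the tightest partner was ND1 with an SD of 0.13, followed by COX3 with 0.17. ND2 and ND5 were the loosest protein partners, with SDs of 0.54 and 0.39 against CYTB and of 0.58 and 0.42 against ATP6. Both rRNAs lay below the 2 mRNAs, CYTB being 3.43-fold above the 12S and 2.69-fold above the 16S rRNA and ATP6 6.61-fold and 5.19-fold. The libraries were made for mRNA, so the level of an rRNA here is not its level in the globule.

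ATP8 could not be paired with an identifier by length, because its 201 bases are shared by 6 genes with a count and none of them is among the 50 most abundant. Whichever of them it is, it had at most 15322 counts over all libraries, or 76.2 per base, where ATP6 had 6663 per base. ATP6 and ATP8 are carried on 1 mRNA and overlap. How fragments that lie on both genes were counted is not given in the sources used here, and its part in the level of ATP6 was not tested.

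The genes whose pattern over cows was most like CYTB or ATP6 were mitochondrial-length genes. By Pearson correlation of log2 CPM over 14 cows, given as a measure of likeness, the 5 nearest to CYTB were COX1 (r = 0.981), ATP6 (0.974), COX2 (0.973), ND1 (0.972) and ND4 (0.972). Those nearest to ATP6 were ND1 (0.989), COX1 (0.984), COX3 (0.982), COX2 (0.979) and CYTB (0.974). Of 12319 other genes tested, 12 reached an r of at least 0.9 with CYTB and 11 with ATP6, 10 of them in each case among the 11 other mitochondrial-length genes. ENSBTAG00000043559, singled out after its values were seen, was a further one for both (r = 0.902 with CYTB and 0.913 with ATP6). It has the 297 bases of ND4L but is not among the 50 most abundant genes. Of the 11 mitochondrial-length genes the 16S rRNA had the lowest r, 0.860 with CYTB and 0.891 with ATP6. Within A1A1 alone its r was 0.363 with CYTB and 0.446 with ATP6, and within A2A2 0.883 and 0.927.

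Some genes without a mitochondrial gene's length followed CYTB more closely than the 16S rRNA did, at far lower levels. The nearest to CYTB without the length of any mitochondrial gene were ENSBTAG00000000816 (r = 0.902), ENSBTAG00000006125 (0.881) and ENSBTAG00000059862 (0.878). The first of these averaged 9.13 ± 5.39 CPM in A1A1 cows and 4.39 ± 2.59 CPM in A2A2 cows (SD, 7 cows each), and its r was 0.829 without the 2 cows farthest from the median of CYTB. The nearest to ATP6 were ENSBTAG00000015516 (r = 0.882), ENSBTAG00000006125 (0.848) and ENSBTAG00000007993 (0.846). ENSBTAG00000015516 had 7.19 ± 2.20 and 4.49 ± 1.19 CPM, and without the 2 farthest cows its r was 0.775. These genes were chosen for their likeness, so their levels are a description.

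Some features of the counting limit these values. Copies of mitochondrial sequence in nuclear chromosomes can share reads with CYTB and ATP6. ND6 lies near CYTB on the opposite strand, though CYTB itself is flanked by tRNA genes. Whether strand was used and how reads with several matches were treated is not given in the sources used here.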

How the data were processed

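Total RNA from frozen milk was made into paired-end mRNA libraries, per the labels' protocols. For 36075 Ensembl identifiers the authors deposited a table of raw counts and a table of FPKM. Per the submitters' processing notes, STAR, cutadapt 4.0, FastQC 0.11.9 and edgeR 4.0.16 were used, with no role stated. The build, the annotation and the counter are not given in the sources. The reference table matched 0 identifiers to a symbol, so 8 planned lists of nuclear genes and cell type markers were not run.

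The count table was analysed by edgeR 4.0.16 under R 4.3.3 (TMM, filterByExpr, robust quasi-likelihood test, A2A2 minus A1A1, two-sided, Benjamini-Hochberg, threshold 0.05). CPM, computed here, use TMM factors, and log2 CPM a pseudocount of 0.5. Intervals of differences invert the exact permutation test. The scripts were tested on simulated data. How often the edgeR test calls changes as large as those of CYTB and ATP6 is not given here. Named genes were the 2 members, the mitochondrial-length genes and the genes of most similar pattern, 5 in all and 3 of other lengths for each member. The members and lists were chosen with earlier results of these data known. Alternatives were other scalings, filters, tools (limma 3.58.1, DESeq2 1.42.0), pseudocounts and sets of libraries.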

Additional observations from a re-analysis of the deposited data

Results flagged for a closer look

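ATP6 in A1A1 9 had 44361 CPM, and the nearest A1A1 cow had 25002, a gap of 0.661 of the range of the 7 cows that marks this cow as far from the other 6 by Dixon's criterion. It was the single case among 12 sets of 7 values searched. Chance marks about 1 in 20 of such sets, so a single case among 12 is not unusual. Without this cow the difference in mean log2 CPM between the genotypes was still negative for both genes, and the edgeR log2 fold change was -1.05 for CYTB and -1.001 for ATP6.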

How the results depend on the processing

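CYTB and ATP6 were lower in A2A2 under all 28 alternatives of the test over all genes, and neither passed in 27 of them. The exception was DESeq2 after the filter on low counts, with -1.32 for CYTB and -1.28 for ATP6 (adjusted p = 0.0496 for both). The cause was not tested. Leaving out 1 library gave -1.48 to -1.05 for CYTB and -1.39 to -1.001 for ATP6 (edgeR adjusted p from 0.447 to 0.99987). The number of genes called was 0 in the main test, 12 by DESeq2, 5 by DESeq2 without the filter, which was added after seeing the data, and 1 by limma on log2(FPKM + 1). It was 0 when any 1 library was left out. In the exact permutation tests of log2 CPM, leaving out 1 library gave -1.45 to -1.12 for CYTB and -1.40 to -1.09 for ATP6. In the 10 libraries without the suffix, CYTB differed by -1.45, where its adjusted p over 6 measures was 0.0952, and the share of both genes in all counts by -2.51 points. Both passed the threshold with all cows but not in these 10. Fewer cows were tested there. The share differed by -2.55 to -1.61 points when 1 library was left out. The sign of the small differences varied. The log2 ratio of CYTB to ATP6 differed by 0.025 without the suffix libraries and by 0.055 between medians, and by -0.067 to 0.042 when 1 library was left out. The portion of mitochondrial mRNA counts differed by -0.23 points for CYTB without A1A1 3, 7 and 9 and -0.037 for ATP6 between medians. Between medians it was 0.82 points for CYTB, and without 1 library 0.019 to 0.40 for CYTB and 0.11 to 0.46 for ATP6. No paired analysis was possible because no sample number occurs in both genotypes. With the counts at hand, sampling error of CYTB and ATP6 is small and the spread between cows sets the limit.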
